A study of Mus musculus with 72 samples.

Results

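Whole blood of mice that had received 1 Gy of x-rays 7 days earlier was compared with blood of sham-irradiated controls taken on the same day. The samples were those titled for 1 Gy x-rays at day 7 (5 mice) and for controls at day 7 (6 mice), 11 of the 72 arrays of the series. All mice were young adult male C57BL/6 animals with no genetic change. The irradiated mice were exposed to the whole body with an orthovoltage x-ray machine, and the controls were mock-treated in holders on the wheel of the neutron source with the beam off, so that the controls did not share the setting of the x-ray exposure. Blood was drawn by cardiac puncture, 1 mouse per array, and globin transcripts were reduced before the RNA was labelled with Cy3 and hybridised to 1-colour Agilent arrays. For comparison, 3 other sets of mice of the same strain and sex were used: 1 Gy x-rays (6 mice) and controls (5 mice) at day 1, 4 Gy x-rays at day 7 (6 mice) and 1 Gy of fission-like neutrons at day 7 (6 mice).

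Whole-blood RNA is a mixture. Reticulocytes, the youngest red cells in the circulation, carry the last messages of the erythroid programme, while the remaining transcripts come from lymphocytes, granulocytes, monocytes and platelets. Ionising radiation stops division in the bone marrow and kills lymphocytes, B cells above all, and the fast-dividing erythroid precursors are known both for their sensitivity and for their early regrowth. In such bulk samples fewer cells of a type and less RNA per cell cannot be told apart. The paper reports total blood counts within the normal range after irradiation. It also reports that neither cell death nor the make-up of the white blood cells changed significantly. No separate count of B cells is given there, and how cell numbers relate to the levels below was not tested.

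Levels are given as log2 intensity relative to the median of the detected probes of the same array, so a level of 0 is that median. Because each gene was read by a probe of its own, levels are compared between mice and not between genes. Of the 6 control and 5 x-ray arrays, between 54.3% and 63.9% and between 52.8% and 58.8% of the probes, respectively, were well above background, and the arrays of each group correlated with each other at r = 0.912 to 0.988 and r = 0.915 to 0.985. Of the blood markers on the array, 22 of 23 B cell, 29 of 29 T cell and 6 of 8 globin genes passed the detection filter. Those that passed were well above background on all 11 arrays, which the filter itself nearly requires.

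Several arrays also held transcripts of liver or heart. The mean level of 23 hepatocyte markers was 4.35 in x-ray mouse 5 and 2.57 in x-ray mouse 3, with all 23 above background in both, against -3.69 to -2.29 in the other x-ray mice and -4.25 to -2.47 in the controls. The mean level of 19 heart and skeletal muscle markers was 0.88 in control mouse 2 and -0.02 in control mouse 5, against -4.35 to -2.84 in the other controls and -4.97 to -3.85 in the x-ray mice. None of the 17 tested genes of the hepatocyte, heart and endothelial lists passed the test described next. X-ray mouse 5 further stood apart with the lowest level of the B cell, MHC class II, monocyte and neutrophil granule lists and the highest level of the mitosis list.

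**Figure D1:**
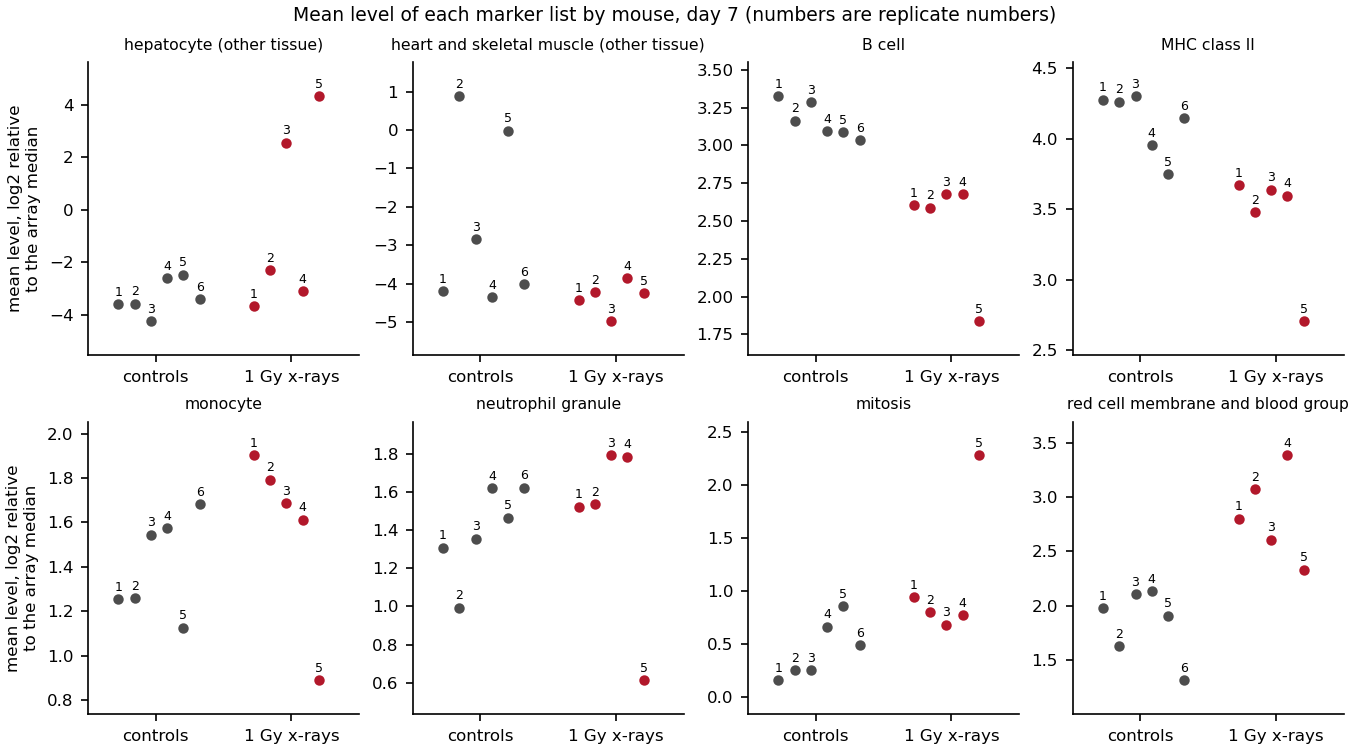
Mean level of 8 marker lists (log2 relative to the array median, vertical axis) in each control mouse (grey, n = 6) and each mouse 7 days after 1 Gy x-rays (red, n = 5), with replicate numbers beside the points. X-ray mice 3 and 5 were high in hepatocyte markers, control mice 2 and 5 in heart markers, and x-ray mouse 5 was lowest in B cell markers and highest in mitosis genes.

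Across 10850 genes, 435 were called at p below 0.001 and a false discovery rate below 0.05 by limma with Benjamini-Hochberg adjustment, which is 4.01% of the genes tested. Of these, 358 were higher after x-rays (3.3% of the genes tested) and 77 were lower (0.71%). The rises were also larger than the falls: 288 of the higher genes and 17 of the lower genes changed by more than 2-fold. In 404 of the 435 genes all 5 x-ray mice lay on one side of all 6 controls, compared with 857 genes (7.9%) among all genes tested, 5.11% with the x-ray mice higher and 2.79% with them lower. With both x-ray mice that carried liver transcripts left out 553 genes were called, 500 higher and 53 lower. With both control mice that carried heart transcripts left out 337 were called, 286 higher and 51 lower. With both sets of mice left out 577 were called, 539 higher and 38 lower. Leaving out x-ray mouse 2 lowered the count to 261. All directions are relative to the bulk of transcripts on an array: centring on the spike-in controls instead moved the median fold change of all genes from 0.04 to -0.97 on the log2 scale and gave 7 higher and 2393 lower calls, and normexp background correction left 74 higher and 0 lower calls of 12947 genes (limma; 2845 of 10850 genes had an unadjusted p below 0.05 in the reported fit).

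Of the 358 genes called higher, 47 belonged to a gene list described here and 311 to none, and of the 77 called lower 9 belonged to a list and 68 to none. The 5 lists of red cell membrane, globin, heme, iron and reticulocyte clearance genes, with 69 genes tested, held 27 of the 358. Called members of the erythroid regulator list and called red cell genes outside the lists are not among these 27. Of the 23 genes tested for proteins of the red cell membrane and blood groups, 14 were higher in the irradiated mice and none was lower, and the median log2 fold change of the list was 1.20 beside 0.04 for all genes tested. The list's mean level did not overlap between the groups, running from 2.33 to 3.38 in the x-ray mice and from 1.31 to 2.14 in the controls. Anion exchanger band 3 (Slc4a1) is the most abundant protein of the red cell membrane. Its level was 7.88, 8.70, 7.31, 8.34 and 7.86 in the 5 x-ray mice, and 5.67 at the lowest, 6.55 at the median and 6.72 at the highest in the 6 controls. Every irradiated mouse was above every control, and the log2 fold change was 1.66 ± 0.28 (SE; adjusted p = 0.00546, limma).

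The blood group genes moved with it. Rhd, which encodes the Rh antigen, was at 3.84, 4.42, 3.59, 4.67 and 3.59 in the x-ray mice and at 1.47, 2.07 and 2.84 (lowest, median and highest) in the controls. The groups were again separate, with a log2 fold change of 1.91 ± 0.28 (adjusted p = 0.00321, limma), a 3.77-fold rise. Kel, the endopeptidase that carries the Kell antigen, was at 3.62, 4.18, 3.31, 4.22 and 3.08 after x-rays and at 1.34, 1.97 and 2.41 in the controls. This was a log2 fold change of 1.75 ± 0.26 (adjusted p = 0.00321, limma). X-ray mice 2 and 4 were the highest of the 5 for Rhd, Kel and Slc4a1 alike.

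Some genes of the membrane skeleton were called as well. Ankyrin 1 (Ank1), which anchors band 3 to the skeleton, rose by 1.51 on the log2 scale and protein 4.2 (Epb42) by 1.42. Tropomodulin 1 (Tmod1), the cap of the short actin filaments, rose by 1.63. Among the members that were not called, beta spectrin (Sptb) and glycophorin C (Gypc) stood at 0.14 and 0.02, both with overlapping groups. The count of 14 was 15 without the 2 x-ray mice that carried liver transcripts, 6 without the 2 control mice that carried heart transcripts, 7 without x-ray mouse 4 and 6 without x-ray mouse 2.

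Promoters of Rhd and Kel are shown because both genes rose more than 3-fold and their proximal promoters hold the letters AGATAA, the core read by GATA factors, which drive erythroid genes. The sequences are the 250 bases before the RefSeq start (GRCm38.p6), 5′ to 3′ on the gene's own strand, with AGATAA in capitals. For Rhd this is chr4:134864286-134864535 on the + strand and for Kel chr6:41704326-41704575 on the - strand. The match starts 43 bases before the start of Rhd and 56 bases before that of Kel.
Rhd: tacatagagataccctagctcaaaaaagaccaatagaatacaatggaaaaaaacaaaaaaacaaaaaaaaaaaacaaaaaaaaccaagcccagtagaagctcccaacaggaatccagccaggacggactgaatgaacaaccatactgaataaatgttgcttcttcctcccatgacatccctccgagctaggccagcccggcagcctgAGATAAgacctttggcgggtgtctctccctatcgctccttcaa
Kel: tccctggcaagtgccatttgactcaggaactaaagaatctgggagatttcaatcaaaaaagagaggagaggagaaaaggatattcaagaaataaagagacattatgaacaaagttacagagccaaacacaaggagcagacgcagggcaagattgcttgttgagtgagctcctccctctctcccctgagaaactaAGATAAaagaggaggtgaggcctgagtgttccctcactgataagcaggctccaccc
On either strand, AGATAA was found in 5 of 18 promoters (27.8%) that RefSeq lists for 15 of the 23 red cell membrane genes, and in 3281 of all 32851 promoters (9.99%). Among all genes called higher it was in 25 of 313 promoters (7.99%, for 243 of the 358 genes), close to the 7.33% of promoters of the genes tested. CACCC was in 58.8% of the promoters of the genes called higher and 58.7% of those of the genes tested. A match is a description of the letters only.

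Globin RNA had been depleted from every sample, and how far this differed between samples was not tested. Still, 6 globin genes were detected, and all 6 were tested. Of these, 2 were called higher, all 6 lay above 0 and the median log2 fold change was 0.76. The beta globin gene Hbb-b1 was at 8.74, 9.09, 8.66, 8.99 and 8.67 in the x-ray mice and at 6.44, 7.17 and 8.26 in the controls. The controls were widely spread and still did not reach the lowest x-ray mouse (log2 fold change 1.51 ± 0.30, adjusted p = 0.0117, limma). Hbb-b2 rose by 0.79. Without x-ray mouse 2 none of the 6 globins was called (adjusted p = 0.0424 for Hbb-b1, limma), and Hbb-b2 lost its call in 9 of 11 fits with 1 mouse left out, holding without control mouse 1 or x-ray mouse 5. Both genes are nearly identical copies within a family, so their probes may read each other's transcripts, and neither was called with both x-ray mice that carried liver transcripts left out (adjusted p = 0.0248 and 0.0304, limma). Alpha haemoglobin stabilising protein (Ahsp), the chaperone of free alpha globin, rose by 1.80 (SE 0.24, adjusted p = 0.00248, limma).

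**Figure D2:**
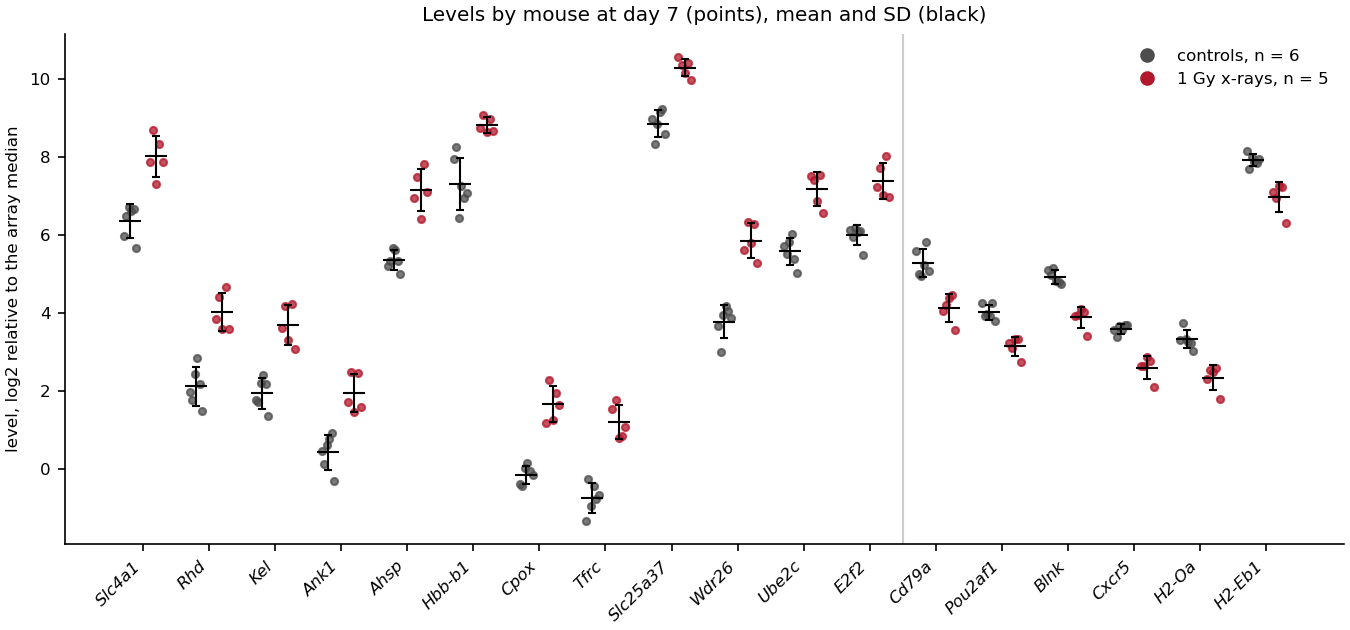
Levels (log2 relative to the array median, vertical axis) of 12 genes called higher and 6 genes called lower in each control mouse (grey, n = 6) and each mouse 7 days after 1 Gy x-rays (red, n = 5), with the mean and SD in black. For all 18 genes the groups do not overlap, and heights of different genes are not comparable because each has its own probe.

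Heme synthesis and iron supply held fewer calls. Of 11 heme genes tested, 2 were called higher: coproporphyrinogen oxidase (Cpox) rose by 1.81 and uroporphyrinogen decarboxylase (Urod) by 1.16. Urod kept its call without x-ray mouse 3 and lost it in the 10 other fits that left out 1 mouse. Cpox was at 1.17, 2.26, 1.25, 1.93 and 1.63 after x-rays and at -0.46, -0.12 and 0.13 in the controls, with no overlap (adjusted p = 0.00219, limma). Alas2, the first enzyme of heme synthesis in red cells, had a log2 fold change of 0.70 ± 0.19 and was not called (adjusted p = 0.0399, limma), but its probe was saturated in 2 of the 5 x-ray mice and in no control, so that the x-ray level is a lower limit. Over the list the median was 0.65, and 10 of 11 genes lay above 0.

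Among 13 genes of iron uptake and storage, 3 were called higher and all 13 were above 0, with a median of 0.70. The transferrin receptor (Tfrc), through which erythroid precursors take up iron, was at 1.53, 1.76, 0.77, 0.83 and 1.08 in the irradiated mice and at -1.34, -0.73 and -0.27 in the controls. All irradiated mice were above all controls, and the log2 fold change was 1.95 ± 0.24 (adjusted p = 0.00219, limma). Mitoferrin 1 (Slc25a37), the mitochondrial iron importer of red cells, rose by 1.44 and the iron chaperone Pcbp2 by 0.63, a call that held only without control mouse 1 or x-ray mouse 5 among the 11 fits with 1 mouse left out.

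Genes that dispose of organelles and proteins in the maturing reticulocyte formed the next group, with 6 of 16 called higher, none lower and a median log2 fold change of 0.95. Wdr26, a subunit of the ubiquitin ligase that clears proteins during terminal erythroid maturation, was at 5.61, 6.34, 5.79, 6.28 and 5.27 after x-rays and at 2.99, 3.90 and 4.18 in the controls. All 5 irradiated mice exceeded all controls, and the log2 fold change was 2.08 ± 0.26 (adjusted p = 0.00219, limma). Ube2o, the ubiquitin-conjugating enzyme that removes ribosomes from reticulocytes, rose by 1.68, Rnf123 by 1.42 and the deubiquitinase Yod1 by 1.74. Bnip3l, the receptor for removal of mitochondria, was at a log2 fold change of 0.71 and was not called (adjusted p = 0.16, limma).

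The regulators of the lineage gave a mixed picture. Of 13 erythroid transcription factors and regulators tested, 3 were called higher, counting Ahsp, and 8 lay above 0. Klf1, the factor that activates adult beta globin, rose by 1.06 ± 0.23 (adjusted p = 0.0185, limma; its call was lost without control mouse 2, 3 or 6 or x-ray mouse 1, 2 or 4) and Sox6, a repressor of embryonic globin, by 1.91 ± 0.36 (adjusted p = 0.0105, limma). Gata1 was at 0.31 ± 0.27 (adjusted p = 0.506, limma) and the erythropoietin receptor (Epor) at -0.04 ± 0.34 (adjusted p = 0.956, limma), both with overlapping groups.

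Between the lists of mitosis and DNA replication, the calls were in the mitosis list, although the difference between these lists was not tested. Of 32 mitosis genes, 5 were called higher and none lower, with a median of 0.49, while none of 25 genes of DNA replication was called in either direction and their median was -0.02. The ubiquitin-conjugating enzyme Ube2c, which hands ubiquitin to the anaphase-promoting complex, was at 7.52, 7.40, 6.87, 7.53 and 6.56 after x-rays and at 5.03, 5.62 and 6.02 in the controls. The groups did not meet, and the log2 fold change was 1.60 ± 0.24 (adjusted p = 0.00321, limma). Fzr1, an activator of that complex, rose by 1.51, cyclin A2 (Ccna2) by 1.44, cyclin B2 (Ccnb2) by 1.46 and the phosphatase Cdc25b by 1.29. The groups overlapped for Cdc25b, and its call was lost without control mouse 2, 5 or 6 or any of x-ray mice 1 to 4. Nusap1, which organises the spindle, was at 1.06 ± 0.26 and missed the threshold (adjusted p = 0.0292, limma).

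X-ray mouse 5 held a large part of the shift of the mitosis list, because its mean level was 2.28 while the other 4 lay between 0.69 and 0.94 and the controls between 0.16 and 0.86. Without it the list's median was 0.11, with 5 members called higher. In the replication list too this mouse was the highest, at 1.48. The promoter of Ube2c is shown because CCAAT, the box read by NF-Y, was in 24 of 29 promoters (82.8%) of the mitosis genes tested and in 33.8% of all promoters, on either strand. Its 250 bases before the start lie at chr2:164769679-164769928 on the + strand and hold CCAAT 6 times, of which a pair overlaps, marked in capitals on whichever strand it was read.
Ube2c: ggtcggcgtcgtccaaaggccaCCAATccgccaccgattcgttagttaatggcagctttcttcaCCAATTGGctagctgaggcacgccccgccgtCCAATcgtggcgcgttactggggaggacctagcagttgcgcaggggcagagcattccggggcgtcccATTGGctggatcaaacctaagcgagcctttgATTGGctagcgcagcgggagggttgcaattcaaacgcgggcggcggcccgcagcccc

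E2f2, an E2F factor that acts in late erythroid divisions, was the member of its family that was called. Its level was 7.23, 7.71, 7.02, 8.04 and 6.98 after x-rays and 5.49, 6.09 and 6.19 in the controls, with no overlap (log2 fold change 1.41 ± 0.22, adjusted p = 0.0039, limma). The remaining 7 tested members of the E2f list were not called, among them E2f1 at 0.14. Of 37 histone genes, 1 was called, H2bc22 at 1.18.

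Genes of the antioxidant defence were called higher in 4 of 18 cases, with a median of 0.14 over the list. The called members were the glutamate-cysteine ligase subunit Gclm (1.75 ± 0.23, adjusted p = 0.00248), catalase (Cat, 1.39 ± 0.27, adjusted p = 0.0112, with overlapping groups), glutathione peroxidase 1 (Gpx1, 0.95 ± 0.19, adjusted p = 0.0125) and superoxide dismutase 2 (Sod2, 0.81 ± 0.18, adjusted p = 0.022; all limma). The count was 2 without x-ray mouse 1, 2 or 4, each of which also ended the call of Gpx1. Of 58 subunits of oxidative phosphorylation 4 were called higher, led by the cytochrome oxidase subunit Cox6b2 at 1.89, with Cox7a2 at 0.84 and Ndufa1 at 0.80, and 2 were called without x-ray mouse 1 or 4, when Ndufa1 lost its call. The 61 cytosolic ribosomal protein genes held no called gene and had a median of 0.03.

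The largest rises lay outside these groups. Fam13c and Hydin, at log2 fold changes of 3.87 and 2.64, were called but overlapped between the groups. The other leading genes were picked from called genes without overlap, so that their separation is no result. Gm5106, a predicted gene of unassigned function, was at 6.27, 1.51, 2.29, 4.30 and 3.97 in the irradiated mice and at -2.09, -1.58 and 0.11 in the controls. All 5 were above the controls, but they spread over more than 4 log2 units among themselves (log2 fold change 5.06 ± 0.73, adjusted p = 0.00288, limma). Wsb2, a substrate receptor of a ubiquitin ligase, was at 5.91, 1.75, 1.93, 4.17 and 4.01 after x-rays and at -1.42, -1.04 and 0.60 in the controls. The order of the mice was nearly the one seen for Gm5106, with mouse 1 highest and mice 2 and 3 lowest, and control mouse 2 was the highest control for both genes. Its log2 fold change was 4.36 ± 0.69 (adjusted p = 0.00383, limma). Olfr544, annotated as an olfactory receptor, rose by 2.18 ± 0.32 (adjusted p = 0.00321, limma), and here too mouse 1 and control mouse 2 were the highest of their groups.

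Of the apolipoprotein L family, 3 members on chromosome 15 rose to a like degree, Apol10b by 2.55, Apol10a by 2.24 and Apol11b by 2.22. Their sequences are related, so their probes may share transcripts. Cmas, which activates sialic acid for its transfer to glycoproteins, rose by 2.31 ± 0.26 (adjusted p = 0.00186, limma), and Reep6, a protein that shapes the endoplasmic reticulum, by 2.20 ± 0.41 (adjusted p = 0.00977, limma). The x-ray levels of Reep6 ran from -0.09 to 2.48, highest in mouse 5, which carried liver transcripts. Without that mouse its log2 fold change was 1.785 and still called.

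**Figure D3:**
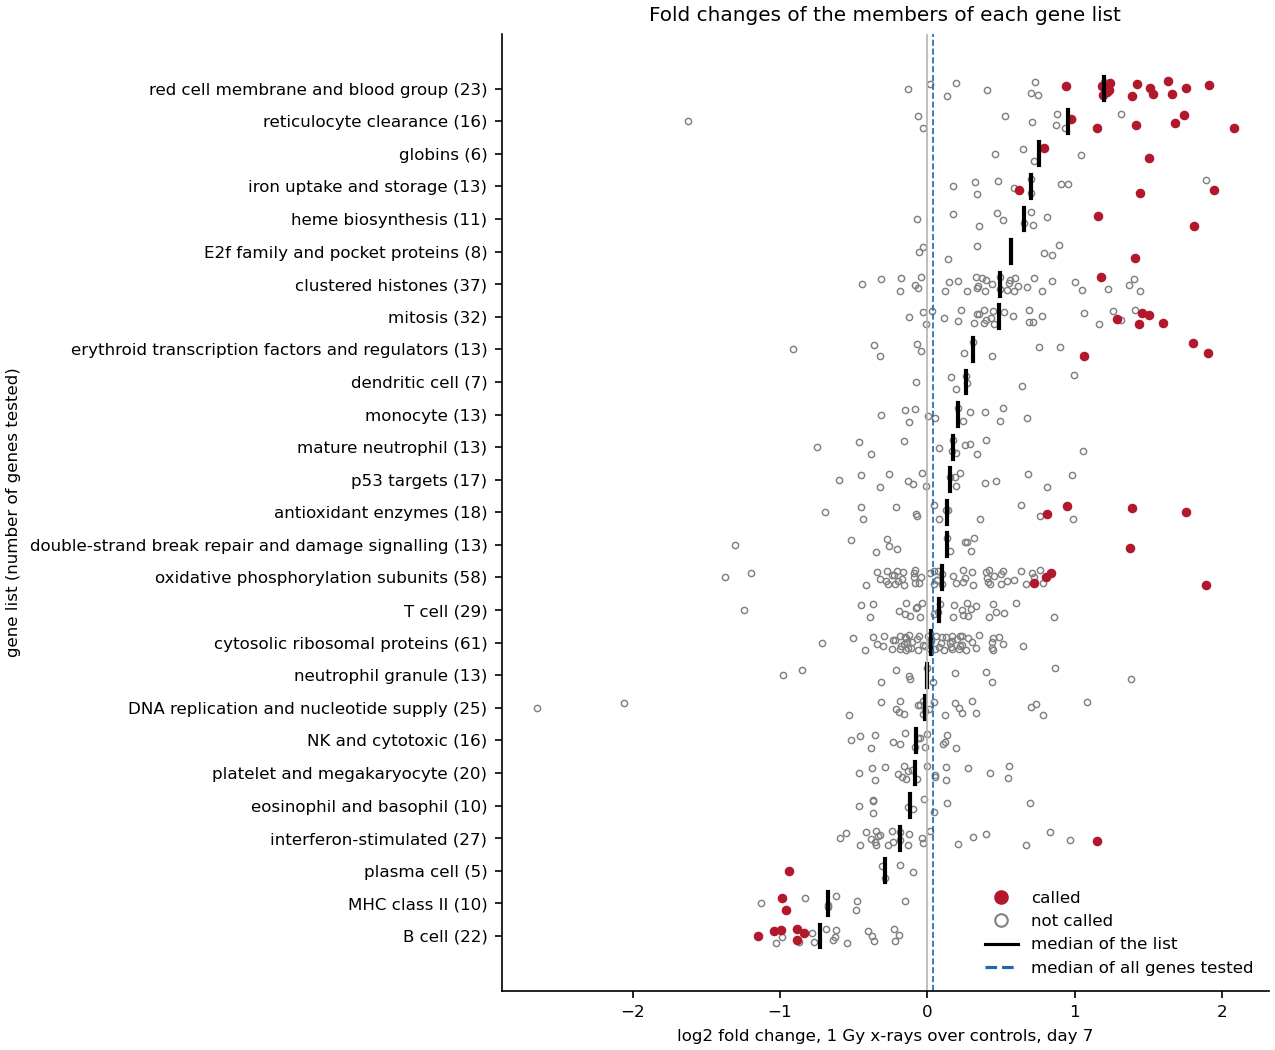
Log2 fold change of every tested gene (horizontal axis, 1 Gy x-rays over controls at day 7) in 27 gene lists (rows, number of genes tested in parentheses), with called genes filled, list medians in black and the median of all genes tested (0.04) dashed. Called genes lie to the right in the red cell lists and to the left in the B cell, MHC class II and plasma cell lists.

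Of the lists described here, that of B cells held the most genes called lower. All 22 B cell genes tested lay below 0 with a median log2 fold change of -0.73, and 6 were called lower and none higher. The mean level of the B cell markers was 2.60, 2.59, 2.68, 2.68 and 1.84 in the x-ray mice and between 3.03 and 3.33 in the controls. The groups did not overlap with or without mouse 5, without which the median was -0.52 with 6 members called. Without both x-ray mice that carried liver transcripts it was -0.53 with 4 called, and when the 2 controls with heart transcripts were left out as well 2 stayed called. Under normexp background correction none of the 22 was called and the median was -0.54.

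Cd79a, a signalling chain of the B cell receptor, was at 4.04, 4.21, 4.39, 4.47 and 3.57 after x-rays and at 4.96, 5.16 and 5.82 in the controls. It fell by 1.15 on the log2 scale (SE 0.22, adjusted p = 0.0106, limma), a 2.22-fold drop with separate groups. The adaptor Blnk, which links that receptor to its downstream kinases, was at 3.93, 3.94, 4.11, 4.03 and 3.42 in the x-ray mice and at 4.74, 4.89 and 5.16 in the controls, and fell by 1.04 (SE 0.17, adjusted p = 0.00405, limma). For both genes mouse 5 was the lowest of the irradiated mice.

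The follicle-homing receptor Cxcr5 fell by 0.99, the B cell coactivator Pou2af1 by 0.88 and the exchange factor Ralgps2 by 0.84. Members not called included Ms4a1, which encodes CD20, at -0.40 (adjusted p = 0.11, limma) and Cd22, an inhibitory receptor, at -0.19 (adjusted p = 0.56, limma). MHC class II genes, expressed by B cells and other antigen-presenting cells, lay below 0 in all 10 cases with a median of -0.67. Of these 2 were called, H2-Oa, a brake on peptide loading, at -0.98 and the antigen-presenting chain H2-Eb1 at -0.96, the latter not without x-ray mouse 2 (adjusted p = 0.0415, limma). Of 5 plasma cell genes 1 was called, Mzb1, at -0.94.

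The largest fall among the called genes was that of the adenosine receptor Adora2a, which was at -2.73, -2.56, -2.25, -1.49 and -2.35 in the x-ray mice against -0.94, 0.08 and 1.91 in the controls. The controls spread over nearly 3 log2 units (log2 fold change -2.59 ± 0.51, adjusted p = 0.0115, limma). The groups did not overlap, but this was required for a gene to be named among the largest falls. The calcium channel Cacna1i fell by 1.29, the scaffold gene Stac2 by 1.19, the transcriptional inhibitor Id3 by 1.19 (a call that held only without control mouse 3, 4 or 5 among the 11 fits with 1 mouse left out), Mif4gd by 1.16, Ankrd37 by 1.14 and Cd83, a surface marker of activated B cells and dendritic cells, by 1.12. The call of Adora2a was lost without the 2 x-ray mice that carried liver transcripts (adjusted p = 0.0351, limma) and without x-ray mouse 1 (adjusted p = 0.0365).

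For the other blood cell types no member was called in the reported fit. This held for 29 T cell genes (median 0.08), 16 NK and cytotoxic genes (-0.07), 13 neutrophil granule genes (0.00), 13 genes of mature neutrophils (0.17), 13 monocyte genes (0.21), 10 eosinophil and basophil genes (-0.12), 7 dendritic cell genes (0.26) and 20 platelet genes (-0.09). The mean level of the dendritic cell list did not overlap, at 1.78 to 1.97 in the x-ray mice and 1.38 to 1.64 in the controls. With 1 mouse left out, up to 2 monocyte genes and up to 1 dendritic cell gene were called higher. Of single markers, Cd3e of T cells was at 0.52 ± 0.17 (adjusted p = 0.0806), platelet factor 4 (Pf4) at 0.42 ± 0.31 (adjusted p = 0.422) and the neutrophil alarmin S100a8 at 0.29 ± 0.35 (adjusted p = 0.643; all limma). Of 27 interferon-stimulated genes 1 was called, the RNA sensor Oas3 at 1.16 (not called without control mouse 1, 2 or 6 or x-ray mouse 2), while the median of the list was -0.19.

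Targets of p53, the factor that halts the cycle after DNA damage, were also without a call at day 7 (0 of 17; median 0.15). The cell-cycle inhibitor Cdkn1a was at -1.67, -1.28, -2.02, -2.61 and -1.36 in the x-ray mice and at -3.25, -2.92 and -1.73 in the controls. The groups overlapped through x-ray mice 3 and 4, and the log2 fold change of 0.98 ± 0.31 was not called (adjusted p = 0.0733, limma), except without control mouse 6 (adjusted p = 0.0287). Cyclin G1 (Ccng1) was at -0.04 ± 0.18 and Phlda3, an Akt inhibitor, at 0.22 ± 0.20. Mdm2 and Mpo did not pass the filter on detected and variable probes and were not tested. Of 13 genes of double-strand break repair and damage signalling 1 was called, the ubiquitin ligase Rad18, at 1.38 ± 0.20 (adjusted p = 0.00288, limma).

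The time course was tested as the change in the x-ray effect from day 1 to day 7, with the controls of each day. Of the 10850 genes, 942 differed (8.68%), 741 with the higher value at day 7 (6.83%) and 201 with the lower (1.85%). Within 5 joined lists of the red cell (membrane, globins, heme, iron and reticulocyte clearance; 69 genes) 38 were higher at day 7 than at day 1 and none was lower. At day 1, where 7.64% of all genes were called (4.54% lower and 3.1% higher), 21 of these genes were called lower and 1 higher. Of these genes, 15 were called lower at day 1 and higher at day 7. Among all genes tested 3.3% were called higher at day 7, and the share called in both ways was not counted. Slc4a1 went from a log2 fold change of -2.82 at day 1 to 1.66 at day 7, a difference of 4.48 ± 0.52 (adjusted p = 6.58e-06, limma). Ank1 went from -3.37 to 1.51 and Wdr26 from -1.34 to 2.08, with differences of 4.89 and 3.42. Tfrc was at 0.43 at day 1 without a call, and its difference of 1.52 ± 0.37 was called (adjusted p = 0.00664, limma).

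B cell genes behaved otherwise. All 32 B cell and MHC class II genes were below 0 on both days, 17 of them called lower at day 1 and 8 at day 7, and the difference between days was called for none of them (limma, p below 0.001 and false discovery rate below 0.05), although 2 of the 22 B cell genes were called lower at day 7 than at day 1 with spike-in centring. For Cxcr5 the difference was 0.07 ± 0.27 between log2 fold changes of -1.06 at day 1 and -0.99 at day 7. For p53 targets 8 of 17 were called higher at day 1, and 4 had a lower effect at day 7 than at day 1. Cdkn1a was at 3.11 at day 1, and its effect at day 7 differed by -2.13 ± 0.44 (adjusted p = 0.00195, limma). Ccng1 was at 1.10 at day 1 and differed by -1.14. Centring on the spike-in controls left 107 higher and 2181 lower genes in this contrast, and in it 9 of 23 red cell membrane genes were still higher and 1 lower at day 7 than at day 1. Normexp correction called none of the p53 targets in this contrast.

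**Figure D4:**
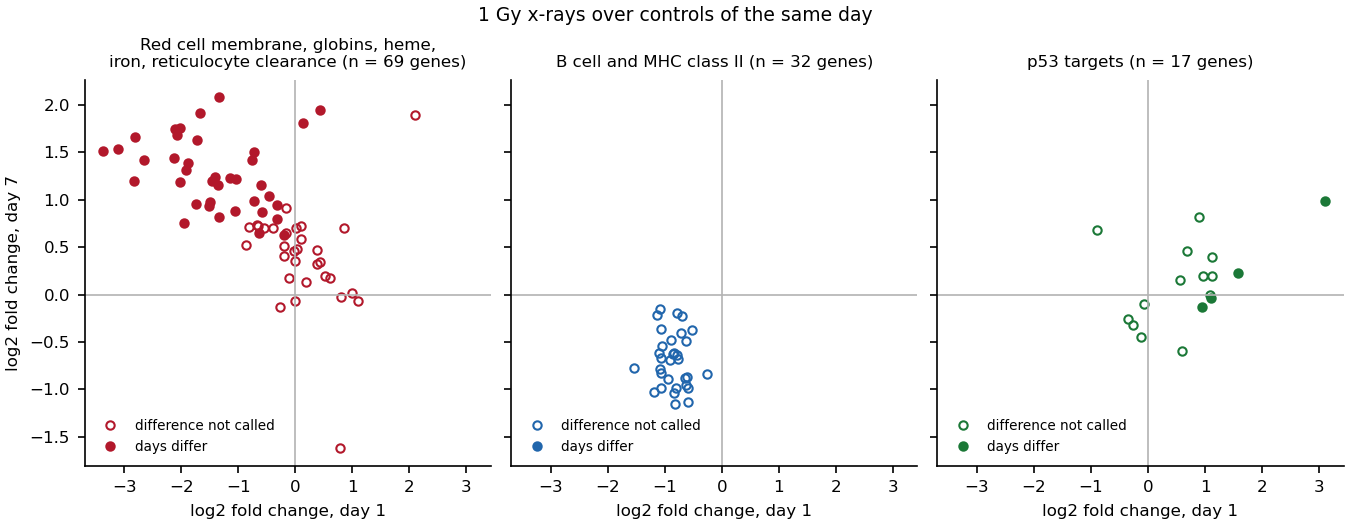
Log2 fold change of 1 Gy x-rays over controls of the same day at day 1 (horizontal axis) and day 7 (vertical axis) for the genes of 5 joined red cell lists (69 genes), the B cell and MHC class II lists (32 genes) and p53 targets (17 genes), each point a gene, filled where the difference between days was called. Red cell genes spread into the upper left, with lower day 1 and higher day 7 values, and all B cell and MHC class II genes lie below 0 on both days.

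The dose was examined by comparing 4 Gy with 1 Gy of x-rays at day 7 directly. Of all genes 1036 differed (9.55%), 434 higher (4%) and 602 lower (5.55%) at 4 Gy. These counts share the 1 Gy mice with the comparison above. Leaving out x-ray mouse 2 or 4 of the 1 Gy group gave 659 and 688 genes. The split depended on scaling: normexp gave 23 higher and 349 lower, centring on all probes 509 higher and 447 lower, and the spike-in controls 5296 higher and 34 lower. B cell genes were lower at 4 Gy in 21 of 22 cases with a median difference of -2.02, and 8 of 22 were still lower when the arrays were centred on the spike-in controls. Cd79a was at -1.15 after 1 Gy and -3.29 after 4 Gy against the shared controls, and the direct difference was -2.14 ± 0.23 (adjusted p = 0.000119, limma).

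Red cell membrane genes gave no such order by dose, with 0 of 23 higher and 2 lower at 4 Gy and a median difference of 0.12, except that 13 were higher and none lower with spike-in centring, which moved the whole array upward at 4 Gy. For Slc4a1 the difference between doses was 0.12 ± 0.30 (adjusted p = 0.78, limma) and for Rhd 0.50 ± 0.28. With the reported scaling, 0 of 16 reticulocyte clearance genes were higher and 3 lower at 4 Gy, with Wdr26 at -0.11 ± 0.28. The iron list had 0 of 13 higher and 4 lower, among them Slc25a37 (-1.085 ± 0.216, adjusted p = 0.00497, limma). Of 11 heme genes 1 was higher and 2 were lower. The globin list was lower at 4 Gy in 3 of 6 cases, and Ahsp was higher (1.49 ± 0.28, adjusted p = 0.00396, limma). Of the p53 targets 7 of 17 were higher at 4 Gy, Cdkn1a by 2.09 ± 0.23 (adjusted p = 0.000154, limma). The pair of genes with the largest rise at 1 Gy was lower at 4 Gy, with a difference of -4.39 ± 0.80 for Gm5106 (adjusted p = 0.00335) and -3.81 ± 0.71 for Wsb2 (adjusted p = 0.00377; both limma), and both were called under all 6 scalings, the reported one included. Their log2 fold changes against the shared controls were 0.66 and 0.55 after 4 Gy and were not called, in a comparison in which 17.6% of all genes were called (9.06% higher and 8.5% lower).

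Neutrons and x-rays were also compared at the same nominal dose of 1 Gy. By the paper's methods the neutron beam also delivered gamma rays, and its dose rate was lower than that of the x-rays. These differences cannot be told apart from radiation type here. Between both exposures 2496 genes differed (23%), 1879 higher (17.3%) and 617 lower (5.69%) after neutrons. The direction of this split turned with scaling, from 75.3% higher as reported to 29.6% with centring on all probes, 49.1% with quantile normalization and 0.419% with the spike-in controls, and the neutron arrays were dimmer, with 40.2% to 50.3% of probes well above background. B cell genes were lower after neutrons in 18 of 22 cases, and in 16 to 20 cases under the other scalings. Without x-ray mouse 3, 1533 genes differed in all. Cd79a showed a difference of -1.48 ± 0.24 (adjusted p = 0.000885, limma). For red cell genes the result depended on the scaling: Slc25a37 was higher after neutrons by 1.49 ± 0.20 as reported (adjusted p = 0.000651, limma), but its difference was as low as -0.17 under the other scalings. Gm5106 and Wsb2, at 6.55 and 5.05 after neutrons against the shared controls (where 38.4% of all genes were called), did not differ beyond their spread between radiation types (1.49 ± 1.08, adjusted p = 0.257, and 0.69 ± 1.03, adjusted p = 0.583; limma).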

How the data were processed

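Blood RNA of 11 mice at day 7, and of 23 further mice used for comparison, was measured on 1-colour Agilent arrays. The authors deposited the scanner output of each array, with background-subtracted intensity per probe from Feature Extraction (version 12.0.2 per the submitters' processing notes). From it, control spots were left out, log2 was taken, and the median of the detected probes was subtracted within each array. Probes flagged or dim on 25% or more of the 56 arrays of days 1 and 7 were left out. So were probes that changed 1.5-fold on fewer than 20% of these arrays. The 56 arrays include exposure groups of both days that were not compared here. The brightest probe stood for a gene. Groups were compared with limma (version 3.58.1, R 4.3.3) in fits of the groups concerned, with calls made where p was under 0.001 and the false discovery rate under 0.05. The script was tested on simulated data. Groups came from the sample titles. Each array is 1 mouse, so p-values measure the spread between mice, and the number of arrays limits the precision. The x-ray and control arrays shared no scan date and no slide, so that these and the treatment cannot be told apart, and random blocks do not separate them.

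The members, gene lists and tests were chosen with earlier results of these data known. Named genes were the 8 called genes with the largest rise and the 8 with the largest fall without overlap between groups, up to 3 called members of each list by p, and a set of marker genes. Ank1, Ralgps2, Sod2, Epb42, Tmod1, Sptb, Gypc, Yod1, Bnip3l, Ccnb2, E2f1, Ms4a1, Cd22, Fam13c, Hydin and the genes of the closing observations were chosen after their values were seen. Alternatives covered background correction, scaling, filters, probe averaging, the variance model, the pooled fit, blocks and left-out mice. The table of values across the whole series was not used here. Results for some genes are not reported here. Promoter sequences are from RefSeq (GRCm38.p6), which listed promoters for 6642 of the 10850 genes tested; Slc4a1, Ahsp and Hbb-b1 had no entry.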

Additional observations from a re-analysis of the deposited data

Results flagged for a closer look

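Dixon's test was applied to 184 sets of values, each a named gene or list mean in 1 group of mice. In these sets 17 values stood apart from the rest, where the test marks about 1 in 20 sets by chance. X-ray mouse 5 accounted for most of them. It was low in the mean level of B cell (1.84), MHC class II (2.71), monocyte (0.89), neutrophil granule (0.61) and interferon-stimulated genes (1.14), and in Blnk (3.42) and Cacna1i (-0.75). It was high in the mean level of mitosis (2.28), DNA replication (1.48) and double-strand break repair genes (-0.43). This mouse also had the highest hepatocyte marker level, whose part in these values was not tested. Control mouse 2, with the highest heart marker level, was high in Apol10b (1.02), Gm5106 (0.11) and Olfr544 (4.26), and low in Sox6 (-4.41) and in the mean level of the E2f family (-0.16). Control mouse 6 was low in E2f2 (5.49), and control mouse 3 was high in the mean level of p53 targets (0.055).

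The effect of 1 Gy x-rays differed between day 7 and day 1 for 37 of the 62 named genes reported here, beside 8.68% of all genes tested (limma). Most of these genes were named because they were called in the day 7 comparison, which is part of this contrast, so their share is no result. All values are the log2 effect at day 7 minus that at day 1. Among red cell genes the difference was 4.48 for Slc4a1, 3.59 for Rhd, 3.78 for Kel, 2.24 for Hbb-b1, 1.12 for Hbb-b2, 3.93 for Ahsp, 1.67 for Cpox, 1.77 for Urod, 1.52 for Tfrc, 3.57 for Slc25a37 and 0.82 for Pcbp2. The genes of reticulocyte clearance and erythroid regulation gave 3.42 for Wdr26, 3.77 for Ube2o, 2.18 for Rnf123, 4.60 for Sox6 and 1.36 for Klf1. Cell-cycle genes gave 3.22 for Ube2c, 2.84 for Fzr1, 2.96 for Ccna2, 2.96 for Cdc25b, 3.61 for Nusap1, 3.14 for E2f2 and 2.76 for the histone H2bc22. The antioxidant genes Gclm, Cat and Gpx1 gave 2.63, 1.67 and 1.81, and Cox6b2, Oas3 and Rad18 gave 2.39, 2.33 and 1.98. Apol10a, Apol10b, Apol11b and Cmas gave 4.68, 3.84, 4.27 and 3.66. The differences were negative for Adora2a (-3.55), Cdkn1a (-2.13), Phlda3 (-1.36) and Ccng1 (-1.14).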

How the results depend on the processing

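In the order day 7 comparison, difference between days, 4 Gy against 1 Gy, and neutrons against x-rays, normexp background correction called 74, 264, 372 and 4024 genes, spike-in centring 2400, 2288, 5330 and 5017, and the false discovery limit alone 895, 2106, 2794 and 5635. Without the detection filter the neutron contrast gave 9551 genes, and a fit of all groups gave 735 in the day 7 comparison. Scan date as a random block gave 750 genes in the day 7 comparison and 434 between days, and slide as a random block, added after seeing the data, gave 254 and 564. The replicate block gave 252 genes in the day 7 comparison, 425 between doses, 752 between radiation types and 823 between days. Same-numbered mice correlated at r = 0.062 to 0.418 in 5 pairs and 1 mouse correlated best with its own number, so the numbers were not taken to pair the mice. With 1 mouse left out, the counts ran from 261 to 507, 746 to 1154, 659 to 1317 and 1533 to 2954. The share of calls that were higher moved from 82.3% to 100% and 0.292% (normexp and spike-in centring) in the day 7 comparison, from 78.7% to 93.6%, 4.68% and 56.9% (with the replicate block) between days, from 41.9% to 53.2% (all probes), 6.18% (normexp), 99.4% (spike-in) and 28.4% (all groups) between doses, and from 75.3% to 18% between radiation types with dim spots set to missing. Spike-in centring shifts all genes of an array alike. With it, the list medians that turned negative included -0.34 for heme, -0.22 for iron, -0.61 for erythroid regulators and -0.44 for mitosis. Lists with smaller positive medians in the reported fit were shifted downward as well. In the day 7 comparison 7 genes in all were then called higher. Single genes that turned included -0.088 (Cox7a2), -0.12 (Ndufa1), -0.28 (Pcbp2), -0.70 (Phlda3), -0.61 (Gata1), -0.40 (Cd3e), -0.50 (Pf4) and -0.63 (S100a8). Ccng1, close to 0, was at 0.031 under normexp and between -0.135 and 0.045 with 1 mouse left out. Epor was between -0.24 and 0.18 with 1 mouse left out, at 0.24 without the x-ray mice that carried liver transcripts and at 0.08 without those and the controls with heart transcripts. Over the settings that kept all mice or left out those with liver or heart transcripts, 1008 values of named genes kept direction and side of the threshold, 163 lost the call and 7 gained it, and with 1 mouse left out 617 kept, 67 lost and 1 gained it. The causes were not tested.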

Other observations

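Several genes outside the lists, chosen after their values were seen, add to the description. The mitochondrial folate enzyme Mthfd2 was at 2.32, 2.49, 1.19, 1.66 and 1.56 in the x-ray mice and at -0.93, -0.15 and 0.33 (lowest, median and highest) in the controls. All 5 irradiated mice were above all controls, with a log2 fold change of 2.12 ± 0.31 (adjusted p = 0.00321, limma). Asparagine synthetase (Asns) rose by 1.66, the transcription factor Atf5 by 1.77, the glycine transporter Slc6a9 by 1.61 and the large neutral amino acid transporter Slc7a5 by 1.42. Of other genes in amino acid and one-carbon metabolism or its control, none of the following was called, with Shmt2 at 0.46, Psat1 at -0.02, Phgdh at -0.32, Trib3 at -0.21 and Atf4 at 0.31.

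Further genes known from red cells were called higher outside the lists. Ranbp10 rose by 1.85, Rmnd5a, a subunit of the same ubiquitin ligase as Wdr26, by 1.44, the survival factor Bcl2l1 by 1.35 and the Duffy antigen receptor Ackr1 by 1.29. Among the genes called lower, the lymphotoxin subunit Ltb was at -1.68 with overlapping groups, and Cd38 and the chemokine receptor Ccr6 were at -0.92 and -0.91 with no overlap.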
